A study of Homo sapiens with 42 samples.

Results

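Nuclear RNA from K562 cells treated for 1 h with KCl was compared, gene by gene, with nuclear RNA from cells treated for 1 h with JTE-607, to find which nuclear rises were shared and which belonged to one treatment. The 6 libraries were chosen by their labels, 3 for KCl and 3 for JTE-607, out of 42 libraries in the series. K562 is an established human cell line from chronic myeloid leukemia that carries the BCR-ABL1 fusion kinase, and all groups used here are the same line. In the KCl group, 110 mM KCl was added to the medium, which is a hyperosmotic shock. The JTE-607 group (JTE) received 5 µM of the compound. The untreated nuclear libraries (CTRL, 3 libraries) served as the baseline, and nuclear libraries from cells given 1 µM imatinib for 1 h (IM 1h, 3 libraries) gave a further reference. The fit also held 3 nuclear libraries from cells given 1 µM imatinib for 18 h. They entered the estimate of spread and the mean levels by which genes were taken as expressed, and were not compared. The labels call all of them biological replicates. The nuclear KCl libraries are labelled 1 h, whereas the treatment text gives 45 min of KCl for nascent RNA, a separate preparation.

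The end of most messenger RNAs is made when the cleavage and polyadenylation complex recognizes a poly(A) signal and its nuclease, CPSF73, cuts the transcript. JTE-607 is an inhibitor of CPSF73. When cleavage fails, RNA polymerase can continue past the gene end, and such readthrough RNA can run into a gene lying downstream on the same strand, which is then counted as if it were expressed. Hyperosmotic stress is known both for readthrough far past gene ends and for the activation of stress kinases that switch on immediate early genes. In counts over annotated exons, RNA started at a gene's own promoter and RNA that runs in from upstream cannot be told apart.

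Each of the 9 KCl, JTE and CTRL nuclear libraries held between 19251170 and 25103205 counted read pairs. Levels are given as counts per 1000000 (CPM) after scaling between libraries. A gene was called when the edgeR quasi-likelihood test gave a Benjamini-Hochberg adjusted p under 0.05 and the log2 fold change was beyond 0.6, and 21929 genes were tested. Levels are relative within a library, so a change in total RNA per nucleus cannot be told apart from them. The 12 erythroid markers of K562 were present in all 9 libraries, the lowest being EPOR at 16.7 to 29.1 CPM, and none was called between KCl and JTE. Of 8 tested markers of other cell types 1 was called, CD79A, at 0.0894 to 1.65 CPM over the 9 libraries, and MS4A1 and CD3E stayed at or under 0.267 CPM in all 9, while EPCAM, KRT8 and KRT18 were expressed in all 9. MALAT1, a nuclear long non-coding RNA, took between 1.03% and 1.70% of the counts of each library.

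The direct comparison found 2340 genes higher with KCl than with JTE, 10.7% of the genes tested, and 1149 genes higher with JTE, 5.24%. Among genes with a mean of at least 5 CPM over all 15 nuclear libraries, fitted alone, 159 were higher with KCl and 186 higher with JTE. A gene near 0 in the other groups passes this filter only when its level in 1 group is well above 5 CPM. The filter thus removes rises from near 0 more readily than falls, and the turned balance follows in part from it. Against CTRL, 3362 genes rose with KCl (15.3%) and 1536 rose with JTE (7%). KCl also lowered 1865 genes (8.5%), against 332 lowered by JTE (1.51%). In the IM 1h libraries 1 gene was called higher than CTRL (0.00456%) and 9 were called lower (0.041%).

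A rise was called shared when a gene was higher than CTRL under both treatments. It was assigned to one treatment alone when the gene rose with that treatment, was not called higher with the other, and also differed in the direct test. By these rules 1217 rises were shared, 1670 belonged to KCl alone and 161 to JTE alone. A gene that the other treatment lowered also counts as a rise of one treatment alone, so the 1670 include 6 genes called lower with JTE and the 161 include 10 called lower with KCl. The shared genes were 36.2% of the KCl rises and 79.2% of the JTE rises. Both comparisons use the same 3 CTRL libraries, so errors in those libraries enter both. When JTE was instead compared with IM 1h, and KCl with CTRL, 1200 rises were shared, and with the baselines swapped 1210 were shared. JTE was then called higher than IM 1h in 7.42% of the genes tested and KCl in 15.7%. For 633 further genes, 475 that rose with KCl and 158 that rose with JTE, the direct test was not called, so they could not be assigned.

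**Figure D1:**
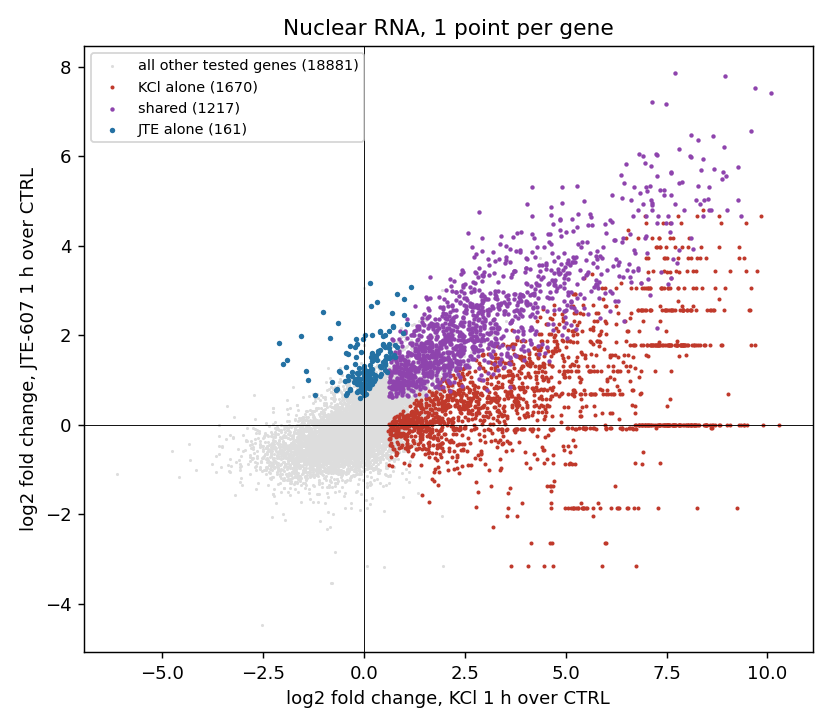
Each point is a gene tested in nuclear RNA, placed by its log2 fold change over CTRL with KCl (x axis) and with JTE-607 (y axis), and colored by the class it was given. The 1217 shared rises extend along both axes, the 1670 rises of KCl alone spread along the x axis, and the 161 rises of JTE alone form a small group above 0 on the y axis. Horizontal rows of points are genes with few or no counts in JTE or CTRL.

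Of the 1217 shared genes, 439 were called higher with KCl than with JTE in the direct test, 48 were called higher with JTE, and 730 were not called. The median log2 fold change of the shared genes over CTRL was 2.51 with KCl and 2.08 with JTE. The genes that rose with KCl alone had medians of 3.74 with KCl and 0.44 with JTE, and those that rose with JTE alone had medians of 0.11 with KCl and 1.20 with JTE. These medians describe classes that were chosen on the same values. In the IM 1h libraries, which the rules did not use, the median log2 fold change over CTRL was 0.01 for the shared genes, 0.00 for those of KCl alone and -0.08 for those of JTE alone, and no gene of the 3 classes was called higher.

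Most of the shared genes and of those of KCl alone were close to silent in untreated cells. The CTRL mean was under 1 CPM for 76.1% of the shared genes and 84.7% of those of KCl alone. The share was 35.4% for JTE alone and 30.9% for all genes tested. A gene this low in CTRL was tested mainly where another group was higher, and the classes were chosen as rises over CTRL. The contrast with all genes tested is therefore drawn upward, and whether silent genes rise more readily was not tested. Protein-coding genes made up 57.9% of the shared rises, 54.1% of those of KCl alone and 52.2% of those of JTE alone, beside 62.8% of all genes tested. Where the annotation places a gene with a mean of at least 10 CPM upstream on the same strand, 27.8% of the shared genes, 14.1% of those of KCl alone and 36% of those of JTE alone lay within 10000 bases past its end, beside 12.7% of all genes tested.

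The ends of 5 upstream genes are shown because the genes just past them are among the most changed and are described next. Each run is the last 30 bases of the annotated gene on its own strand (GRCh38, ends as given with the deposited counts). Capitals mark the poly(A) signal AATAAA or its common variant ATTAAA.
NRAS, upstream of AMPD1 (chr1:114704469-114704498, minus strand): aaaaactggaagttcttggcttagtcataa
RPL18, upstream of FAM83E (chr19:48615328-48615357, minus strand): ctcttATTAAAaagatttttgctgacagtg
MIGA1, upstream of NEXN (chr1:77879510-77879539, plus strand): actattactgccaAATAAAaaagtgatggt
ABCF2, upstream of IQCA1L (chr7:151207837-151207866, minus strand): gggcctgacaaaAATAAAgggtgaactgtt
MIR142HG, upstream of TSPOAP1 (chr17:58330884-58330913, minus strand): ccaatgctAATAAAgactggactgtgcttc
One of these hexamers stands in this window in 4 of the 5. It does so in 62.1% of the 9309 genes with a mean of at least 10 CPM. The NRAS window holds neither, which says only that these letters are not in its last 30 bases.

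Among the shared rises, MYOZ3, which encodes a Z-disc protein of muscle, had 0 counts in all 3 CTRL libraries. It reached 4.21, 6.33 and 8.49 CPM with KCl and 1.11, 0.629 and 1.21 CPM with JTE. All treated libraries lay above all CTRL libraries, and the KCl libraries lay above the JTE libraries. Against the floor of 3 counts per library, MYOZ3 was at least 45.4-fold higher with KCl and at least 7.04-fold higher with JTE than in CTRL. The direct log2 difference of KCl over JTE was 2.67 ± 0.31 (SE, adjusted p = 3.89e-06 by edgeR).

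IQCA1L lies 2341 bases past ABCF2, a ribosome-associated ATPase gene. It was at 5.76, 6.38 and 8.35 CPM with KCl, at 0.701, 0.629 and 0.605 CPM with JTE, and at 0.0447, 0 and 0 CPM in CTRL. The 3 groups did not overlap. KCl exceeded JTE by a log2 value of 3.39 ± 0.25 (edgeR adjusted p = 9.51e-09). Since CTRL held 1 count in all, the ratio of KCl to CTRL, 442, has an exact 95% counting interval of 78.9 to 17508.

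OSBPL10, a gene for an oxysterol-binding protein, showed a smaller gap between the treatments. KCl gave 18.1, 11.4 and 20.3 CPM, JTE gave 6.76, 5.71 and 6.62 CPM, and CTRL gave 0.134, 0.182 and 0.149 CPM. Both treatments stood far above CTRL, by log2 fold changes of 6.69 for KCl and 5.31 for JTE, and KCl exceeded JTE by 1.38 ± 0.20 (edgeR adjusted p = 3.33e-05). YAP1P1, a processed pseudogene 16413 bases past STXBP5, had KCl values of 10.5, 8.98 and 11.6 CPM against 5.44, 3.34 and 4.52 CPM with JTE and at most 0.099 CPM in CTRL. The other shared genes with the largest rises were GARIN1A, MBP (a major protein of myelin), AGR2 (a protein disulfide isomerase family member) and DKK3 (a secreted Wnt modulator). In all 4 the KCl libraries lay above the JTE libraries, with direct log2 differences of 1.66, 1.31, 3.27 and 2.75. The nearest expressed gene upstream on the same strand ended 102663 bases from MYOZ3 and 403732 from OSBPL10. For GARIN1A, MBP, AGR2 and DKK3 it ended 19954, 837611, 957328 and 952073 bases away.

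TSPOAP1 showed the opposite order. It encodes a protein that binds the RIM proteins of synapses and lies 2124 bases past MIR142HG, the host gene of miR-142 (chr17:58330884-58332508, minus strand). The pair was listed because earlier results of these data had shown it. TSPOAP1 was at 40.8, 49.6 and 73.1 CPM with KCl, at 152, 116 and 138 CPM with JTE and at 6.03, 6.97 and 12.8 CPM in CTRL. Every JTE library lay above every KCl library, which all lay above CTRL. JTE exceeded KCl by a log2 difference of 1.31 in TSPOAP1 (KCl minus JTE -1.31 ± 0.27, edgeR adjusted p = 0.00317). MIR142HG itself was lower with KCl, at 11.3, 15.9 and 17.8 CPM, than with JTE, at 37.1, 36.2 and 42, and both were below CTRL, at 53, 55.9 and 69.4 CPM.

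**Figure D2:**
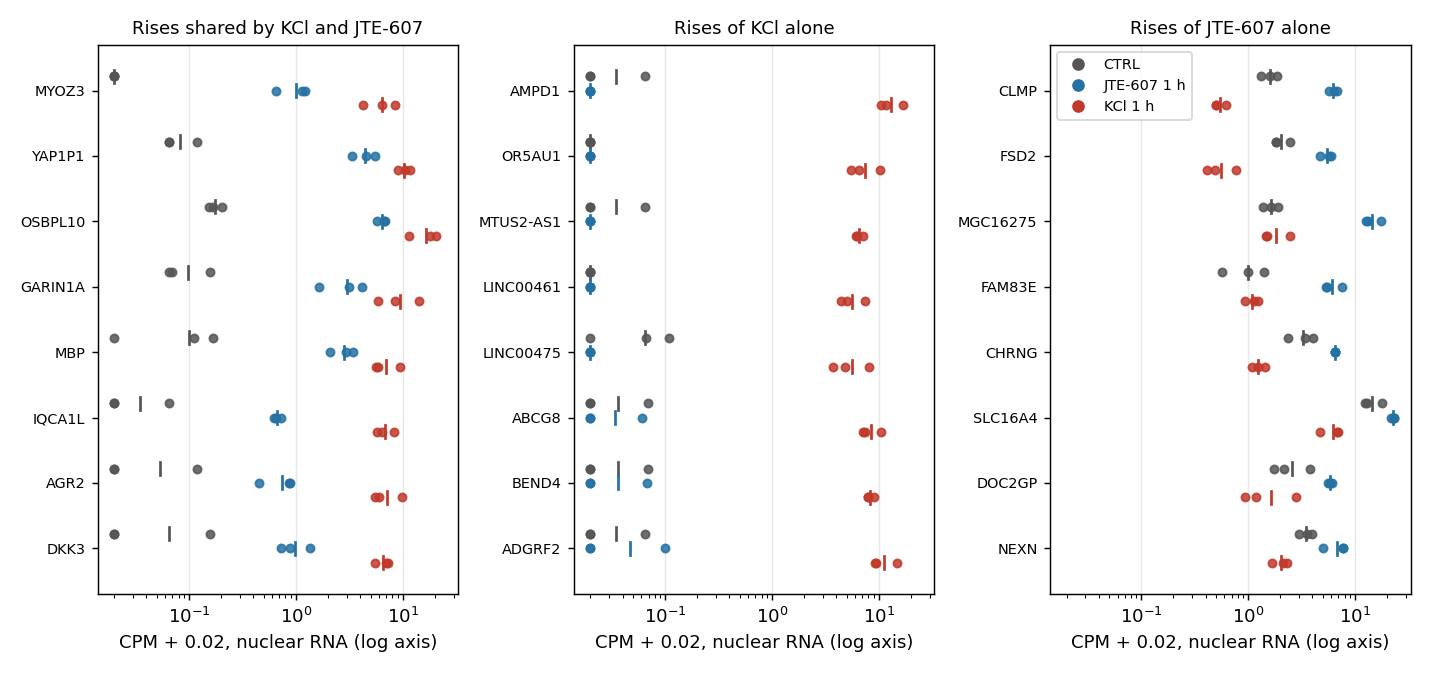
Nuclear CPM (log axis, with 0.02 added so that 0 can be drawn) of the 8 genes that the naming rule gives for each class, with 1 point per library and a bar at each group mean. In the left and middle panels the 3 KCl libraries lie to the right of JTE and CTRL. In the right panel the 3 JTE libraries lie to the right of both.

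The rises of KCl alone were led by genes with no or nearly no reads under JTE. AMPD1, the AMP deaminase of skeletal muscle, begins 8851 bases past NRAS (chr1:114673090-114695618, minus strand). KCl gave 11.7, 10.6 and 16.9 CPM, while all 3 JTE libraries had 0 counts and CTRL had 1 count in all. AMPD1 was therefore at least 101-fold higher with KCl than with JTE (floor of 3 counts per library, edgeR adjusted p = 9.32e-09). OR5AU1, an olfactory receptor gene 41019 bases past LINC00641, was at 6.56, 5.44 and 10.1 CPM with KCl and at 0 in the JTE and CTRL libraries. It was at least 56.8-fold higher with KCl than with JTE.

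ABCG8, which encodes one part of the sterol transporter of liver and gut, starts 28954 bases past DYNC2LI1. It was at 7.09, 7.45 and 10.6 CPM with KCl, and the JTE libraries held 1 count in all, as did the CTRL libraries. The ratio of KCl to JTE was 585, with an exact counting interval of 105 to 23170. ADGRF2, annotated as a transcribed pseudogene of an adhesion G protein-coupled receptor, lies 29173 bases past CD2AP. It was at 9.49, 9.17 and 14.8 CPM with KCl, with 2 counts in the JTE libraries. BEND4 was at 7.89, 7.82 and 8.98 CPM with KCl, with 1 count in the JTE libraries, and the nearest expressed gene upstream on its strand ended 2529320 bases away. The long non-coding RNA genes MTUS2-AS1 and LINC00461 and the transcribed pseudogene LINC00475 were at 0 in all JTE libraries and at least 50-fold, 43.1-fold and 42.8-fold higher with KCl. LINC00461 lies 26076 bases past MEF2C and MTUS2-AS1 lies 19305 bases past SLC7A1. For LINC00475 the nearest expressed gene upstream ended 1242750 bases away. In all 8 genes the KCl libraries did not overlap the JTE libraries, a condition of the rule by which they are named.

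The rises of JTE alone were fewer and smaller. FAM83E begins 474 bases past the end of RPL18, a ribosomal protein gene. With JTE it was at 5.4, 5.32 and 7.62 CPM, against 0.907, 1.21 and 1.12 CPM with KCl and 0.983, 0.547 and 1.39 CPM in CTRL. The JTE libraries stood apart while KCl and CTRL overlapped. The log2 fold change of KCl over JTE was -2.49 ± 0.33 (edgeR adjusted p = 1.20e-05). MGC16275, a long non-coding RNA gene, showed 13.3, 12.8 and 17.5 CPM with JTE against 1.49, 1.44 and 2.43 CPM with KCl. It overlaps RPL38 on the opposite strand, and the counting used no strand, so reads of the 2 genes cannot be told apart there.

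NEXN, which encodes the actin-binding protein nexilin, starts 8974 bases past MIGA1. JTE gave 7.75, 7.64 and 5.04 CPM, KCl gave 2.29, 2.09 and 1.65 CPM, and CTRL lay between, at 3.98, 3.51 and 2.97 CPM. SLC16A4, a monocarboxylate transporter family gene, followed the same order, with 23.3, 21.9 and 23 CPM under JTE, 12.3, 13 and 17.8 CPM in CTRL and 4.64, 6.98 and 6.84 CPM under KCl. It overlaps 2 expressed antisense genes. DOC2GP, a pseudogene, was at 6.02, 5.85 and 5.61 CPM with JTE and at 0.907, 1.16 and 2.81 CPM with KCl. The nearest expressed gene upstream on the same strand ended 557205 bases from MGC16275, 10167 from SLC16A4 and 436602 from DOC2GP.

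In 10 genes KCl and JTE moved the RNA in opposite directions, with KCl below and JTE above CTRL. The clearest were CLMP, a cell adhesion protein gene, FSD2 and CHRNG, the fetal subunit of the muscle acetylcholine receptor. CLMP was at 0.48, 0.605 and 0.485 CPM with KCl, at 6.76, 6.34 and 5.69 CPM with JTE and at 1.3, 1.59 and 1.83 CPM in CTRL, so that the 3 groups did not overlap. The log2 fold change of KCl over JTE was -3.56 ± 0.28 for CLMP (edgeR adjusted p = 2.74e-08), -3.36 ± 0.27 for FSD2 and -2.39 ± 0.21 for CHRNG. For CLMP, FSD2 and CHRNG the nearest expressed gene upstream on the same strand ended 528896, 182371 and 195377 bases away.

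In 6 genes the directions were the reverse, with KCl above and JTE below CTRL: FOS, SGK1, IER3, MIR9-1HG, ZFP36 and JUNB, the last 3 of which were named after their values were seen. With the replicate numbers as a block, 26 genes in place of 16 moved in opposite directions. FOS encodes a subunit of the transcription factor AP-1. It was at 32.2, 31.6 and 17.9 CPM with KCl, at 1.03, 1.89 and 0.726 CPM with JTE and at 3.66, 3.96 and 1.58 CPM in CTRL. The KCl libraries lay far above the others, and the lowest CTRL library lay below the highest JTE library. The log2 fold change of KCl over JTE was 4.51 ± 0.37 (edgeR adjusted p = 4.21e-07), made of 3.14 for KCl over CTRL and -1.37 for JTE over CTRL. SGK1, a kinase induced by osmotic and hormonal signals, was at 46.8, 33.8 and 35.1 CPM with KCl and at 3.38, 3.48 and 4.40 CPM with JTE, with CTRL between 6.57 and 8.07 CPM. IER3 was at 40.9, 34.3 and 30.3 CPM with KCl and at 6.10, 5.51 and 5.28 CPM with JTE, with CTRL between 8.17 and 10.1 CPM. For SGK1 and IER3 the 3 groups did not overlap. With IM 1h the median log2 fold change of these 6 genes over CTRL was -0.52, and 1 was called lower. Means with IM 1h, JTE and CTRL were 0.555, 1.21 and 3.07 CPM for FOS, 9.09, 9.93 and 18.4 for ZFP36, and 24.2, 26.1 and 39.8 for JUNB. They were 7.80, 3.75 and 7.14 CPM for SGK1, 7.61, 5.63 and 9.30 for IER3, and 4.87, 3.21 and 6.11 for MIR9-1HG. Low levels of FOS, ZFP36 and JUNB were thus not particular to JTE.

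The called immediate early genes all differed in one direction. These are genes switched on within minutes of a stimulus without new protein synthesis, and many encode transcription factors. Of the 25 listed, 22 were tested, and 12 of these were higher with KCl than with JTE and none lower. Their median log2 difference was 0.98, beside 0.02 for all genes tested, of which 10.7% were called higher. Against CTRL, 11 rose with KCl, and none rose and 5 fell with JTE. The largest differences were those of FOS, FOSB at 3.86 ± 0.30 and, among genes at a lower level, EGR3 at 3.57 and KLF4 at 2.79. FOSB was at 38.3, 40 and 25.9 CPM with KCl and at 2.93, 2.47 and 1.77 CPM with JTE. JUN, JUNB, NR4A2 and ZFP36 were higher with KCl by 1.83, 1.39, 1.63 and 1.52. EGR1, with a log2 difference of 0.72 ± 0.52, and ATF3, with 1.11 ± 0.58, did not pass the test.

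**Figure D3:**
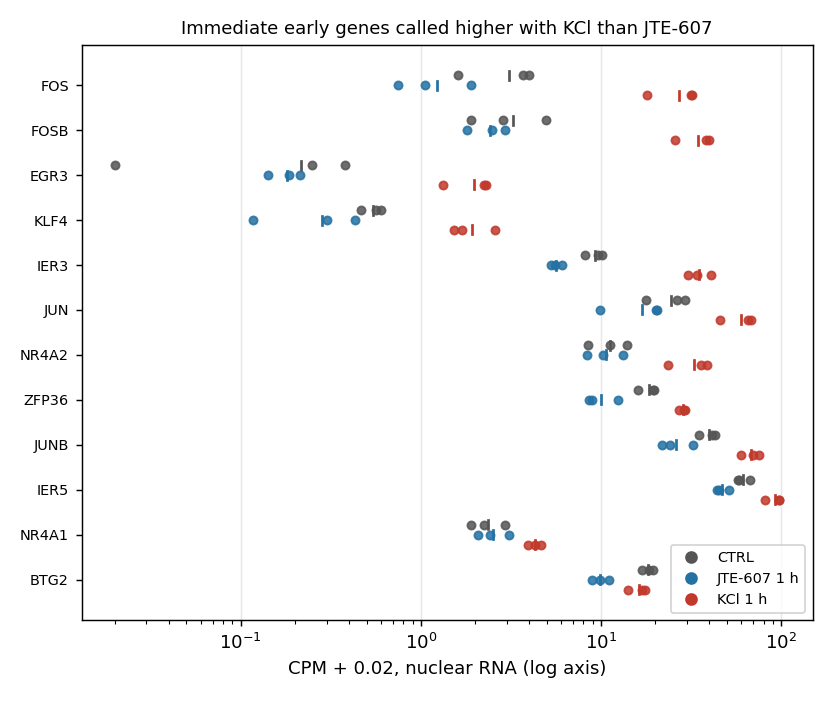
Nuclear CPM (log axis, with 0.02 added) of the 12 immediate early genes called higher with KCl than with JTE, with 1 point per library and a bar at each group mean. In all 12 the KCl libraries lie to the right of the JTE libraries. In BTG2 they overlap the CTRL libraries, and the JTE libraries lie to the left of both.

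The promoters of FOS, GADD45B and HEXIM1 are shown because these genes, from 3 of the lists, stood well above JTE with KCl and were not called above CTRL with JTE. Each run is the 250 bases before the RefSeq start (GRCh38.p14), and capitals mark the letters TATAAA.
FOS (chr14:75278578-75278827, plus strand): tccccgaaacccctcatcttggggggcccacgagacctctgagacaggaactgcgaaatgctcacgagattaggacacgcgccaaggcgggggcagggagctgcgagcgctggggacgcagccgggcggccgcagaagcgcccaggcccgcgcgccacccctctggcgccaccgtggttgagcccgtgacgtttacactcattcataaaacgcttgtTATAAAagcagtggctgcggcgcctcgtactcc
GADD45B (chr19:2475877-2476126, plus strand): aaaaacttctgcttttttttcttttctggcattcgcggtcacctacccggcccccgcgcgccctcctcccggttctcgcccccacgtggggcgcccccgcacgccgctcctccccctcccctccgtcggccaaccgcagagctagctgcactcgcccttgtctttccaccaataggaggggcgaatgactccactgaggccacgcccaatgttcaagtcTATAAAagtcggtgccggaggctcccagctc
HEXIM1 (chr17:45148225-45148474, plus strand): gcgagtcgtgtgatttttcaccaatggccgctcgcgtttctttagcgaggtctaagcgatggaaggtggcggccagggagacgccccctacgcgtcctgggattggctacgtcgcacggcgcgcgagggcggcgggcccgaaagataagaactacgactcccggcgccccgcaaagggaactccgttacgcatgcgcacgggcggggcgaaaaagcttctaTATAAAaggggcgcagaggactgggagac
Searched on both strands, TATAAA stands in each of the 3, and in 10.7% of the 35116 promoters of this length. It stands in 4 of the 23 immediate early promoters found. The motifs TGACGTCA and TGACTCA, which many factors of the AP-1 and CREB families bind, stand in none of the 3, and in 1.65% and 4.2% of all promoters.

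The MAPK feedback and GADD45 genes encode phosphatases and inhibitors that limit kinase signaling and the stress proteins GADD45. Of 13 tested, 4 were higher with KCl than with JTE, beside 10.7% of all genes tested, and none lower, and the median was 0.30. Against CTRL, 1 of the 13 rose with KCl and 2 fell with JTE. GADD45B was at 20, 18.6 and 16.6 CPM with KCl, at 1.28, 1.02 and 0.605 CPM with JTE and at 1.83, 1.37 and 1.09 CPM in CTRL. The KCl libraries stood apart from the other 6. The log2 difference between KCl and JTE was 4.25 ± 0.23 (edgeR adjusted p = 3.09e-10). DUSP1, a phosphatase of MAP kinases, differed by 1.52 ± 0.13. Against CTRL it was not called with KCl, where its log2 fold change was 0.56, and fell by 0.96 with JTE.

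Among 20 genes of osmotic stress and osmolyte transport, 4 were higher with KCl than with JTE, beside 10.7% of all genes tested, and none lower, and the median was 0.17. SGK1 led them. SLC38A2, which carries neutral amino acids into cells, was at 916, 838 and 548 CPM with KCl, at 332, 504 and 229 CPM with JTE and at 386, 305 and 209 CPM in CTRL. Its direct log2 difference of 1.11 ± 0.33 (edgeR adjusted p = 0.0345) lost the call without any of KCl replicates 1 and 2, JTE replicates 1 and 3 and CTRL replicate 2, with values from 0.87 to 1.09, and when only KCl, JTE and CTRL were fitted. The other called members were at a low level, with KCl means of 0.711 CPM for SLC6A12, a betaine carrier, and 0.978 CPM for TSC22D3. NFAT5, the transcription factor of the slower osmotic response, had a difference of 0.20 ± 0.11 and passed neither threshold (edgeR adjusted p = 0.299). SLC5A3, a myo-inositol carrier, had one of 0.30 ± 0.10, below the fold threshold. In poly(A)-selected mRNA of whole cells NFAT5 was called higher with KCl, by 0.78 ± 0.13 (edgeR adjusted p = 0.000361), and SLC5A3 was not called. The difference between nuclear RNA and mRNA was not called for NFAT5.

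Counts in the lists of other stress programs stand beside 10.7% of all genes tested called higher with KCl. Of 10 ATF4 and amino acid stress genes, 3 were higher with KCl, including DDIT3, which encodes the transcription factor CHOP, at 1.20 ± 0.17, and PPP1R15A, a phosphatase subunit that restores translation, at 0.90 ± 0.12. Of 9 NF-kB and cytokine genes, 2 were higher, NFKBIA at 1.04 ± 0.12 and TNF at under 2 CPM. Of 15 heat shock genes, 2 were higher with KCl, a share near that of all genes, DNAJB1 at 0.77 ± 0.13 and HSPA1B at 0.69 ± 0.23. Neither was called against CTRL, and HSPA1B lost the call in 11 alternatives. Only unique alignments were counted, so reads that match HSPA1B and the near-identical HSPA1A equally well are missing from its count. Of 8 STAT5 targets, 3 were higher with KCl, and all 3 fell with JTE against CTRL without being called with KCl: ID1, SOCS1 and SOCS3. SOCS3, a feedback inhibitor of cytokine signaling, was at 41, 55.8 and 52.9 CPM with KCl, at 25.4, 24 and 27.6 CPM with JTE and at 48.4, 52.2 and 64.2 CPM in CTRL. With IM 1h, SOCS3 was lower still, at 5.92, 6.57 and 4.54 CPM. The IM 1h mean of ID1 was 15.5 CPM, beside 26.1 with JTE and 60.8 in CTRL, so low levels of these genes were not particular to JTE.

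In the machinery of 3′ end formation, 1 of 19 cleavage factors was called between the treatments, PCF11, a scaffold that links cleavage to termination of RNA polymerase II. That is a share near the 5.24% of all genes tested that were higher with JTE. PCF11 was at 226, 194 and 207 CPM with JTE, against 131, 114 and 109 CPM with KCl and 127, 110 and 102 CPM in CTRL. The JTE libraries stood above the other 6, while KCl and CTRL overlapped. The log2 fold change of KCl over JTE was -0.82 ± 0.12 (edgeR adjusted p = 2.25e-05). PCF11 overlaps ANKRD42-DT on the opposite strand. CPSF3, the gene of the nuclease CPSF73, had a difference of -0.13 ± 0.16 and was not called.

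Of 17 termination and elongation factors, 2 were higher with KCl, a share near the 10.7% of all genes tested. HEXIM1, the inhibitor of the elongation kinase P-TEFb, was at 154, 152 and 140 CPM with KCl, at 45.7, 46.5 and 47.5 CPM with JTE and at 53.9, 49.2 and 50.3 CPM in CTRL. The difference was 1.67 ± 0.09 (edgeR adjusted p = 3.24e-10). PPP1R10, which encodes the phosphatase subunit PNUTS, was at 338, 381 and 350 CPM with KCl and at 191, 186 and 220 CPM with JTE, a difference of 0.84 ± 0.11. Among 18 SR proteins and splicing kinases, CLK4 alone was called, a share near the 5.24% of all genes tested that were higher with JTE. CLK4 was at 9.55, 8.56 and 6.84 CPM with KCl, 13.9, 13.3 and 13.7 CPM with JTE and 16.8, 15.2 and 17.9 CPM in CTRL. Without KCl replicate 3 its log2 difference was -0.59 and no longer called.

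Of the 1149 genes higher with JTE, 787 were called lower with KCl than in CTRL, 209 were called higher with JTE than in CTRL, 10 of them in both ways, and 163 were neither. MIR223HG, the host of miR-223, is an example of the first kind. It was at 13.5, 18.8 and 7.13 CPM with KCl, at 110, 143 and 65.8 CPM with JTE and at 178, 153 and 120 CPM in CTRL. Its log2 fold change of KCl over JTE was -3.01 ± 0.56. MRPL20-DT, transcribed away from the MRPL20 promoter, was at 3.09, 3.02 and 2.72 CPM with KCl, 14.6, 14.5 and 15.7 CPM with JTE and 15.1, 13.8 and 16.7 CPM in CTRL. Its JTE and CTRL libraries overlapped, and the KCl libraries lay below both. RPL36A was the ribosomal protein gene called lower with KCl than with JTE, by a log2 value of -0.81 ± 0.12, among 82 tested, of which 1 was called higher.

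Other gene groups had calls in both directions. Of 313 divergent promoter transcripts tested, 29 were higher with KCl and 34 with JTE. Of 816 antisense transcripts, 87 were higher with KCl and 81 with JTE. Of 38 microRNA host genes, 4 were higher with KCl and 7 with JTE, and of 132 snoRNA and scaRNA genes, 10 and 12. Among 52 replication-dependent histone genes, 2 were higher with KCl and 1 with JTE, and among 422 ZNF genes, 17 and 11. The shares of all genes tested were 10.7% and 5.24%. SNORD3B-2, a copy of the U3 snoRNA gene, was higher with KCl, at 36.2, 46.3 and 48.3 CPM against 7.05, 7.21 and 8.51 CPM with JTE, but its near-identical copies make the assignment of its reads uncertain.

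The levels of nearly silent genes were then set out by position. All 35711 genes of the table with a mean under 1 CPM in CTRL that overlap no gene with a mean of at least 10 CPM were grouped by their distance past the nearest such gene upstream on the same strand, where there was one, and their CPM values were summed in each library. These distance classes were chosen after the data were seen. Because the genes were chosen to be low in CTRL, a ratio over CTRL is drawn upward, and IM 1h, measured the same way, was at 0.938 to 1.05 times CTRL in the 8 classes. Up to 5000 bases past a gene end (708 genes), the sums were 598, 688 and 943 CPM with KCl and 436, 385 and 470 CPM with JTE, against 146, 155 and 186 CPM in CTRL. At 10000 to 20000 bases (877 genes), they were 661, 702 and 1026 CPM with KCl and 260, 219 and 268 CPM with JTE, against 112, 115 and 123 CPM in CTRL. At 20000 to 50000 bases (1995 genes), they were 900, 927 and 1393 CPM with KCl and 312, 273 and 311 CPM with JTE, against 182, 186 and 194 CPM in CTRL.

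In each of the 8 distance classes every KCl library lay above every JTE library, and KCl replicate 3 was the highest of all. The KCl sum was 4.58 times the CTRL sum up to 5000 bases and 6.83 times at 10000 to 20000 bases, and it was 2.57 to 3.00 times in the 4 classes beyond 50000 bases. The JTE sum was 2.65 times CTRL up to 5000 bases, 2.14 times at 10000 to 20000 bases and 1.60 times at 20000 to 50000 bases. With 3 libraries against 3, the exact two-sided permutation test cannot go below 0.1, and it gave 0.1 in all 8 classes, also after adjustment over them.

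**Figure D4:**
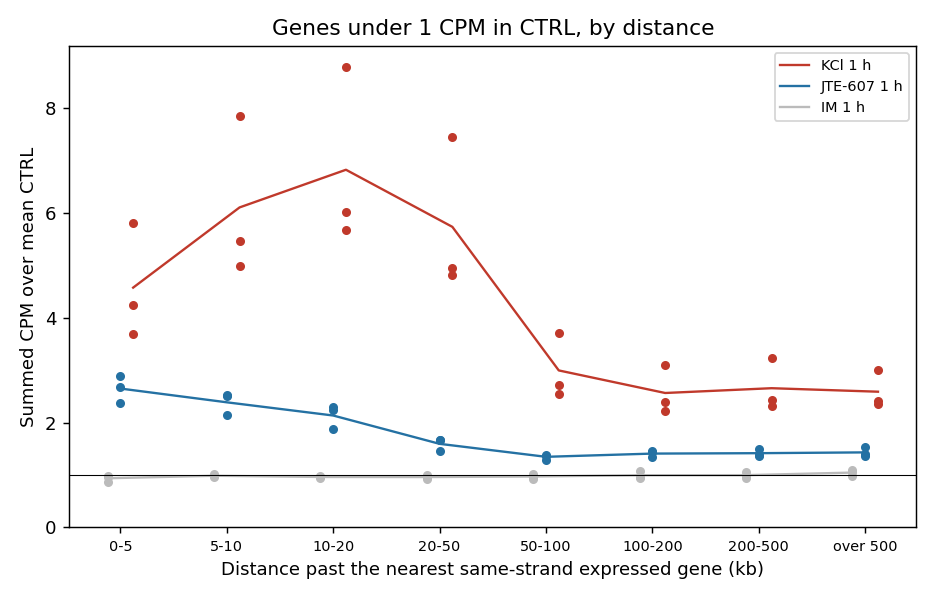
Summed CPM of genes under 1 CPM in CTRL, divided by the mean sum of the CTRL libraries (y axis), in 8 classes of distance in kb past the nearest expressed gene upstream on the same strand (x axis). Points are libraries and lines join the group means. KCl lies above JTE in every class and peaks at 10-20 kb, at 6.83 times CTRL. JTE falls from 2.65 times CTRL in the nearest class to 1.35 times at 50-100 kb, and IM 1h stays near 1.

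The share of these genes that were called was taken over the same classes. Shared rises made up 22% of the 708 genes up to 5000 bases, 10.3% of the 877 genes at 10000 to 20000 bases and 4.61% of the 1995 genes at 20000 to 50000 bases. Rises of KCl alone made up 11.3%, 20.1% and 14.6% of the same 3 classes. Only 388, 370 and 566 genes of these classes passed the low-count filter, and the untested ones stand as not called. Among those tested, shared rises were 156, 90 and 92, and rises of KCl alone were 80, 176 and 292. Genes this low in CTRL were tested mainly where another group was higher. Of the rises of JTE alone, 15 lay in the first class, 0 in the second of these and 2 in the third.

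The balance of far over near signal was measured in each library as the sum at 10000 to 50000 bases divided by the sum up to 5000 bases. It was 2.61, 2.37 and 2.57 with KCl, 2.51 ± 0.13 (SD, n = 3), and 1.31, 1.28 and 1.23 with JTE, 1.27 ± 0.04 (SD, n = 3). CTRL was at 2.01, 1.94 and 1.71 and IM 1h at 2.03, 1.91 and 1.83, so that the KCl libraries lay above and the JTE libraries below all untreated and imatinib libraries. The exact permutation test of KCl against JTE gave p = 0.1 (two-sided, n = 3 each), the smallest it can give.

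A read-in score was taken over the genes close to an upstream gene, and whether the treatments overlapped in it depended on the distance allowed. The score is the mean log2 level (CPM + 0.5) of 624 weakly expressed genes within 10000 bases past an expressed gene, less that of 4611 weakly expressed genes with no expressed gene so near. It was 0.149, 0.263 and 0.409 with KCl, 0.268, 0.234 and 0.353 with JTE, and -0.245, -0.198 and -0.107 in CTRL. KCl and JTE overlapped, both lay above CTRL, and their difference was -0.01 (exact permutation p = 0.9, two-sided, n = 3 each). With 5000 bases in place of 10000, over 402 near genes, the score was 0.141, 0.247 and 0.369 with KCl and 0.404, 0.375 and 0.497 with JTE. There all JTE libraries lay above all KCl libraries, and the difference was -0.17 (exact permutation p = 0.1, the smallest possible with n = 3 each). Of the 624 near genes, 211 were shared rises, 110 rises of KCl alone and 29 of JTE alone. Of the 4611 others, 326, 886 and 16 were, so the genes subtracted in the score moved too.

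**Figure D5:**
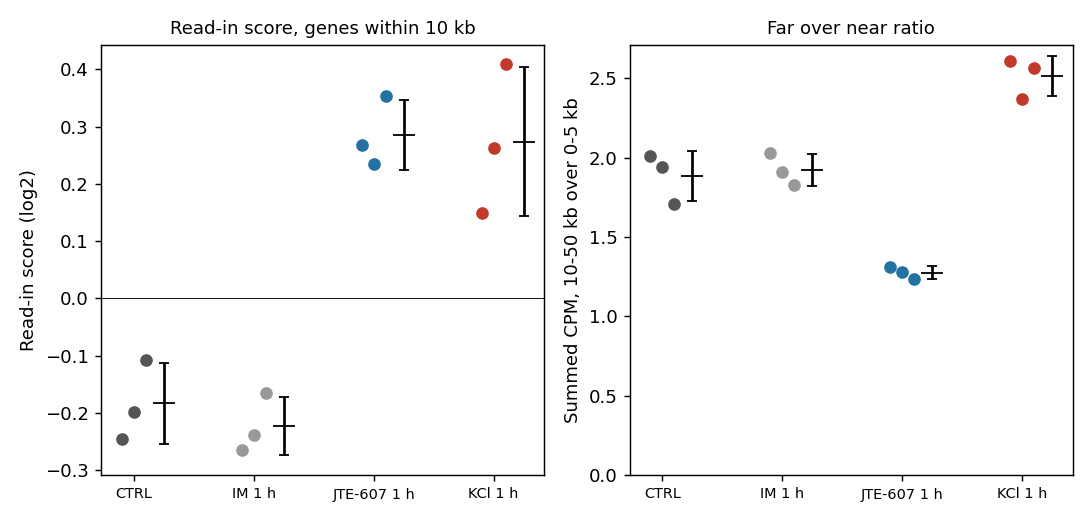
Left, read-in score (log2 scale) and right, summed CPM at 10-50 kb divided by that at 0-5 kb past an expressed gene, for each nuclear library, with the mean and SD of 3 libraries beside the points. On the left, with a distance of 10 kb, the KCl and JTE points overlap, between 0.149 and 0.409. On the right KCl lies between 2.37 and 2.61 and JTE between 1.23 and 1.31.

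The classes were then looked up in poly(A)-selected mRNA from whole cells, 3 libraries each of KCl 1h and JTE 1h that the classes did not use. The sources do not say whether they came from the same cultures. In mRNA, 464 of the 18095 genes tested were higher with KCl than with JTE (2.56%) and 313 were higher with JTE (1.73%). KCl mRNA replicates 2 and 3 were deeper than the rest, with 62953314 and 42474454 counts. Of the 640 genes of KCl alone that were tested in mRNA, 174 were higher with KCl (27.2%) and none with JTE. Of the 130 genes of JTE alone that were tested, 36 were higher with JTE (27.7%) and none with KCl. Of the 711 shared genes, 98 were higher with KCl (13.8%) and 19 with JTE (2.67%). The members tested in mRNA are those that passed its low-count filter. A member near 0 in most groups can pass it only through the libraries where it is high. For such members a call the other way was hardly possible, and the share called is drawn upward. Of the 10 genes lowered by KCl and raised by JTE, 5 were tested in mRNA and 2 were higher with JTE. All 6 genes raised by KCl and lowered by JTE were higher with KCl in mRNA, FOS by a log2 value of 4.35, SGK1 by 3.06 and IER3 by 2.63. TSPOAP1 was higher with JTE in mRNA as well, by a KCl over JTE value of -1.89 (edgeR adjusted p = 3.17e-05). AMPD1 mRNA was called higher with KCl (edgeR adjusted p = 0.000361), at 0.828, 1.10 and 0.419 CPM against 0 in all JTE libraries. FAM83E mRNA was called higher with JTE (edgeR adjusted p = 0.00029), at 0.734, 0.622 and 1.98 CPM against 0, 0.0335 and 0.0698 CPM with KCl. Both are low members of the kind just described, for which a call the other way was hardly possible. PCF11 mRNA was higher with JTE, at 160, 195 and 218 CPM against 109, 134 and 130 CPM with KCl, a log2 fold change of KCl over JTE of -0.62. In a test of the difference itself, 76 of 21117 genes (0.36%) had a KCl against JTE difference that was not the same in nuclear RNA and mRNA, 57 of them shifted toward KCl in nuclear RNA.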

How the data were processed

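Nuclear RNA (rRNA-depleted) and poly(A)-selected mRNA were sequenced as paired-end libraries. Per the labels, the authors aligned reads with STAR to GRCh38.p14 and made raw gene counts with featureCounts. Their methods state unique alignments, removal of duplicate reads, exon counting of read pairs and no strand option, so overlapping antisense genes share or lose reads and readthrough is counted only where it crosses an annotated exon. The deposited values are counts for 58243 gene IDs, of which 57532 were matched to GENCODE 44 for symbols and gene types. Gene positions and ends are those given with the counts, and 99.9% of the matched IDs overlapped their GENCODE 44 position. The annotation release used for counting is not given in the sources used here.

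Counts were tested with edgeR 4.0.16 (TMM, quasi-likelihood, R 4.3.3) in all 15 nuclear libraries with 1 term per group, and mRNA likewise in its own table. Genes were named if the higher group averaged at least 5 CPM and the compared libraries did not overlap: the 8 with the largest difference per class, 3 per direction of opposite moves and up to 3 per direction per gene list. Positions relative to other genes used genes with a mean of at least 10 CPM over all 15 nuclear libraries. The members and lists were chosen with earlier results of these data known. Same-numbered libraries deviated together (correlations 0.392 to 0.891 in 9 pairs), so replicate numbers pair the libraries. The main fit and the exact permutation tests did not use this pairing. Replicates differed by more than counting noise (chi-square per gene 6.16 to 26.6). Intervals and floors (3 counts per library) cover counting error only.

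On simulated data for KCl against JTE in nuclear RNA (20597 genes), 32 of 40 genes raised by a log2 value of 1, 40 of 40 raised by 2 and 31 of 40 lowered by 2 were recovered, with 7 false calls. The simulation gave all genes the same dispersion and same-numbered libraries no shared deviation. Its counts therefore check the procedure and do not give the error rate in these data. DESeq2 1.42.0 was an alternative.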

Additional observations from a re-analysis of the deposited data

Results flagged for a closer look

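For 3 of the named genes the difference between KCl and JTE was not the same in nuclear RNA and in mRNA, by a test of that difference (edgeR, 12 libraries, 21117 genes tested, 76 called, 0.36%). NEXN was higher with JTE in nuclear RNA, whereas in mRNA it was at 2.17, 3.15 and 3.58 CPM with KCl and at 2.67, 2.28 and 2.35 CPM with JTE. The nuclear minus mRNA log2 value for NEXN was -2.17 (edgeR adjusted p = 0.0115). CLK4 was lower with KCl than with JTE in nuclear RNA, and in mRNA it was at 14.4, 15.8 and 16.2 CPM with KCl against 11.1, 12.5 and 7.79 CPM with JTE. The value for CLK4 was -1.38 (edgeR adjusted p = 0.0256). SNORD100, a snoRNA gene inside RPS12, was higher with KCl in both, at 10.1, 9.91 and 14.9 CPM against 3.01, 3.53 and 5.53 CPM in nuclear RNA and at 3.78, 6.60 and 5.05 CPM against 0.157, 0.207 and 0.32 CPM in mRNA. Its value was -3.07 (edgeR adjusted p = 0.0106). The fraction and the library preparation changed together and cannot be told apart.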

How the results depend on the processing

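With DESeq2, 1278 rises of 1 treatment had no call in the direct test. Without a low-count filter, 5517 genes were called in the direct test, 3157 rose with KCl alone and 1311 could not be assigned. With only genes of at least 5 CPM on average, 345 were called directly, 73 rises were shared, 89 were of KCl alone, 17 of JTE alone, 85 unassigned and 5 opposite, and 186 of the 345 were higher with JTE (159 higher with KCl), so most calls rest on low genes. KCl was higher in 67.1% of the direct calls, and in 46.1% under that filter. Without a fold threshold 31 genes moved in opposite directions, and with the replicate block 26. With the block 3952 genes were called directly, 1490 rises were shared, 1677 were of KCl alone and 207 of JTE alone. The block changed no other count by over 1.5 times and, of the named genes, ended the call of MT-TF alone, at -0.59.

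In mRNA, 777 genes were called, 1170 without a filter and 426 with only KCl, JTE and CTRL. The read-in difference of -0.01 was -0.17 with a distance of 5000 bases, where the groups no longer overlapped, 0.00634 with a pseudocount of 2, 0.0753 with upstream genes of at least 30 CPM, 0.00458 with at least 50 counts, and -0.01 in replicate pairs (exact sign-flip p = 1).

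Leaving out 1 library gave 3159 to 3939 direct calls, 871 to 1309 shared rises, 1498 to 2084 of KCl alone, 118 to 220 of JTE alone, 640 to 984 unassigned (984 without JTE replicate 1), 11 to 19 opposite, 582 to 792 in mRNA, and read-in differences of -0.0795 to 0.0504. Of 1224 alternative values for 74 named genes none changed sign and 30, in 9 genes, lost the call. The far over near difference of 1.24 was 1.64 with a CTRL limit of 0.5 CPM, 0.867 with 2 CPM, and 1.19 to 1.31 without 1 library each, alternatives chosen after seeing the data.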
